A study of Mus musculus with 12 samples.

Results

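The genes described here are 9 homeodomain transcription factors of 3 related classes, compared between normal mouse lung and mouse lung tumors: the LIM homeodomain genes Isl1, Lhx1 and Lhx2, the Onecut genes Onecut1, Onecut2 and Onecut3, and the POU genes Pou3f1, Pou3f2 and Pou4f1. They were taken by symbol, and 9 of 9 were found among the 30399 genes of the deposited table. The series holds poly-A RNA sequencing of 5 normal lungs and 7 tumors from a mouse model of lung cancer made by nonviral CRISPR/Cas9 mutagenesis, in which a nuclease cuts chosen genes and faulty repair disables them. The labels name each sample only as normal lung or tumor and give no strain, age, edited gene or time, so what the groups share in genotype is not known here. Each title holds a number, which opens the tumor titles and follows the letters CTL in those of normal lung. Tumors 3 and 4 have the same one (159), as do tumors 5, 6 and 7 (201), which leaves 4 distinct numbers among 7 tumors. Nothing states whether these are animals, and p-values measure only the spread between these samples. Titles of tumors 1 and 7 also hold a Spanish word for trachea. Those of tumors 3, 4, 5 and 6 and of normal lung 5 hold a word for lung.

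A homeodomain is a DNA-binding fold found in many factors that set cell identity in the embryo. LIM homeodomain proteins carry a pair of LIM domains that bind the cofactor Ldb1, and combinations of them specify classes of motor neurons, sensory neurons and interneurons. Onecut proteins pair the homeodomain with a cut domain and act in liver, pancreas and neurons. POU proteins pair it with a POU-specific domain, and the Pou3f and Pou4f classes act mainly in the nervous system, Pou4f1 in sensory ganglia and retina. Pulmonary neuroendocrine cells, the rare airway cells that share many genes with neurons, are the cell type that small cell lung carcinoma resembles.

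Promoter sequences are shown for 4 of the 9 genes because their levels across tumors differ most in kind: Lhx1 and Lhx2 were high in most or all tumors, Isl1 varied widely, and Pou4f1 was highest by far in 1 tumor. RefSeq entries were used for 6 of the 9 genes, on build GRCm38.p6, each running from 250 bases before to 50 bases after an annotated start. Entries on 1 chromosome were left out, so this is not a count of all entries that exist. The windows are chr13:116309639-116309938 on the minus strand for Isl1, chr11:84525485-84525784 on the minus strand for Lhx1, chr2:38339031-38339330 on the plus strand for 1 of the 2 Lhx2 starts listed, and chr14:104467950-104468249 on the minus strand for Pou4f1. Each is written 5′ to 3′ on the gene's strand, and capitals mark the E-box CAGCTG, a motif bound by neurogenic basic helix-loop-helix factors.
Isl1: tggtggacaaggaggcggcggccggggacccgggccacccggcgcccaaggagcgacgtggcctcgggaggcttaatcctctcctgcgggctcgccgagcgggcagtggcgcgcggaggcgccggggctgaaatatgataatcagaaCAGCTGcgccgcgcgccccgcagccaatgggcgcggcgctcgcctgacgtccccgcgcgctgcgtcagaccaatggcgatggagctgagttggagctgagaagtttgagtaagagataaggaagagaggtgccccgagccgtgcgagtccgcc
Lhx1: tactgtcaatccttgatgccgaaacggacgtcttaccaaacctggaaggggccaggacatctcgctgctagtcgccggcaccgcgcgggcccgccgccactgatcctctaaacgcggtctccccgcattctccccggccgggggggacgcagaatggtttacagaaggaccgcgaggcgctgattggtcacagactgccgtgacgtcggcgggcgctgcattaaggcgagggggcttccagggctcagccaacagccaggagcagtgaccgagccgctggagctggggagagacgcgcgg
Lhx2: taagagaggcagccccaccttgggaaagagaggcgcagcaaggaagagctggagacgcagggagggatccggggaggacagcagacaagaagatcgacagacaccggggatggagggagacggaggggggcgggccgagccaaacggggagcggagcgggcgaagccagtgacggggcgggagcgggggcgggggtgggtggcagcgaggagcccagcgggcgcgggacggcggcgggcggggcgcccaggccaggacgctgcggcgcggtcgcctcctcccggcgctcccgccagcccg
Pou4f1: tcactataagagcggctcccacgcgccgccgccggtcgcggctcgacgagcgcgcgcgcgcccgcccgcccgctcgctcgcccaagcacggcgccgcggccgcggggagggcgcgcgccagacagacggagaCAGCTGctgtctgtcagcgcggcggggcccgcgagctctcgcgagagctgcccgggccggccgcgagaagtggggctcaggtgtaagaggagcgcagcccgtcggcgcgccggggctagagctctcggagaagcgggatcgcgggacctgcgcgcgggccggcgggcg

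All 7 windows of the 6 genes were rich in G and C, from 65.7% (Lhx1) to 78.3% (Pou4f1), against a median of 52.7% over 32817 mouse promoter windows of the same length. They held 24 (Pou3f2) to 57 (Pou4f1) CG dinucleotides, against a median of 7. The E-box CAGCTG, which reads the same on both strands, occurred once in the Isl1 window and once in the Pou4f1 window, and 16.3% of all windows held it. The letters ATGCAAAT (octamer bound by POU proteins, in 1.74% of all windows), TAATTA (homeodomain core, 5.30%), ATTGAT (Onecut core, 7.54%) and TATAAA (13.6%) were searched on both strands and were not among the letters of these 7 windows.

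Library depth over genes was 11126432 to 17032234 reads for normal lung and 13093843 to 24217633 for tumors. Values are normalized counts, that is, reads divided by a size factor per sample. Over the group, 3 reads correspond to a mean normalized count of 0.769 for normal lung and 0.340 for tumors. The labelled tissues were checked against marker genes. The summed level of 9 lung epithelium markers was 486 to 3324 normalized counts in tumors against 293691 to 518483 in normal lung, and that of 14 neuroendocrine markers 49224 to 171981 against 7710 to 9517. In normal lung the neuroendocrine sum came mostly from Nkx2-1 (7307 to 9000 in normal lung, 4566 to 14594 in tumors). Endothelium markers (8 genes, 2591 to 7484 against 67491 to 77976) and leukocyte markers (7 genes, 379 to 12633 against 84699 to 164662) also had lower sums in every tumor, that of leukocytes coming, in normal lung, mostly from Lyz2 (78689 to 157579 in normal lung, 134 to 5613 in tumors), and the sums of Schwann cell markers (6 genes, 2099 to 6010 against 3280 to 4047) and fibroblast and mesenchyme markers (6 genes, 2187 to 21890 against 7722 to 16587) overlapped. Tumor 7 had the highest leukocyte and fibroblast sums of the tumors and a cardiac muscle sum (6 genes) of 33420, against 129 to 2137 in the other tumors and 182 to 3555 in normal lung. In bulk tissue, more cells of a type and more RNA per cell cannot be told apart. Y-linked genes (summed over 4 genes) were at 2765 to 3113 in 4 normal lungs and 2536 in tumor 1, and at 0 to 8.08 in normal lung 3 and the other tumors, so tissue and Y-linked expression are partly confounded.

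The main comparison asks which of these factors differ between tumor and normal lung. By limma on log2(normalized count + 1), tumors had higher levels of 8 of the 9 genes and a lower level of 0, at an adjusted p under 0.05 (Benjamini-Hochberg over 23674 genes) and a log2 difference of at least 1. Over all genes tested, 24.0% were called higher and 24.5% lower by the same rule. The median log2 difference was 2.89 over the 9 genes, or 3.02 with Onecut1, which had no normal lung read, at its lower bound, against 0.04 over all genes tested. All 9 passed the filter on low values, but Onecut1 and Pou3f2 had normal lung means under 1 and passed only through the tumors, so they had to differ. In 5 of the 9 genes (Lhx1, Lhx2, Onecut2, Onecut3 and Pou3f1) every tumor lay above every normal lung, which held for 20.1% of all genes tested. The genes fell into 4 strongly expressed ones (Lhx2, Lhx1, Onecut2 and Isl1) and 5 that stayed low in most tumors. Scaling all samples to the same total moved the median difference of all genes from 0.04 to 0.23 and changed no direction or call among the 9.

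**Figure D1:**
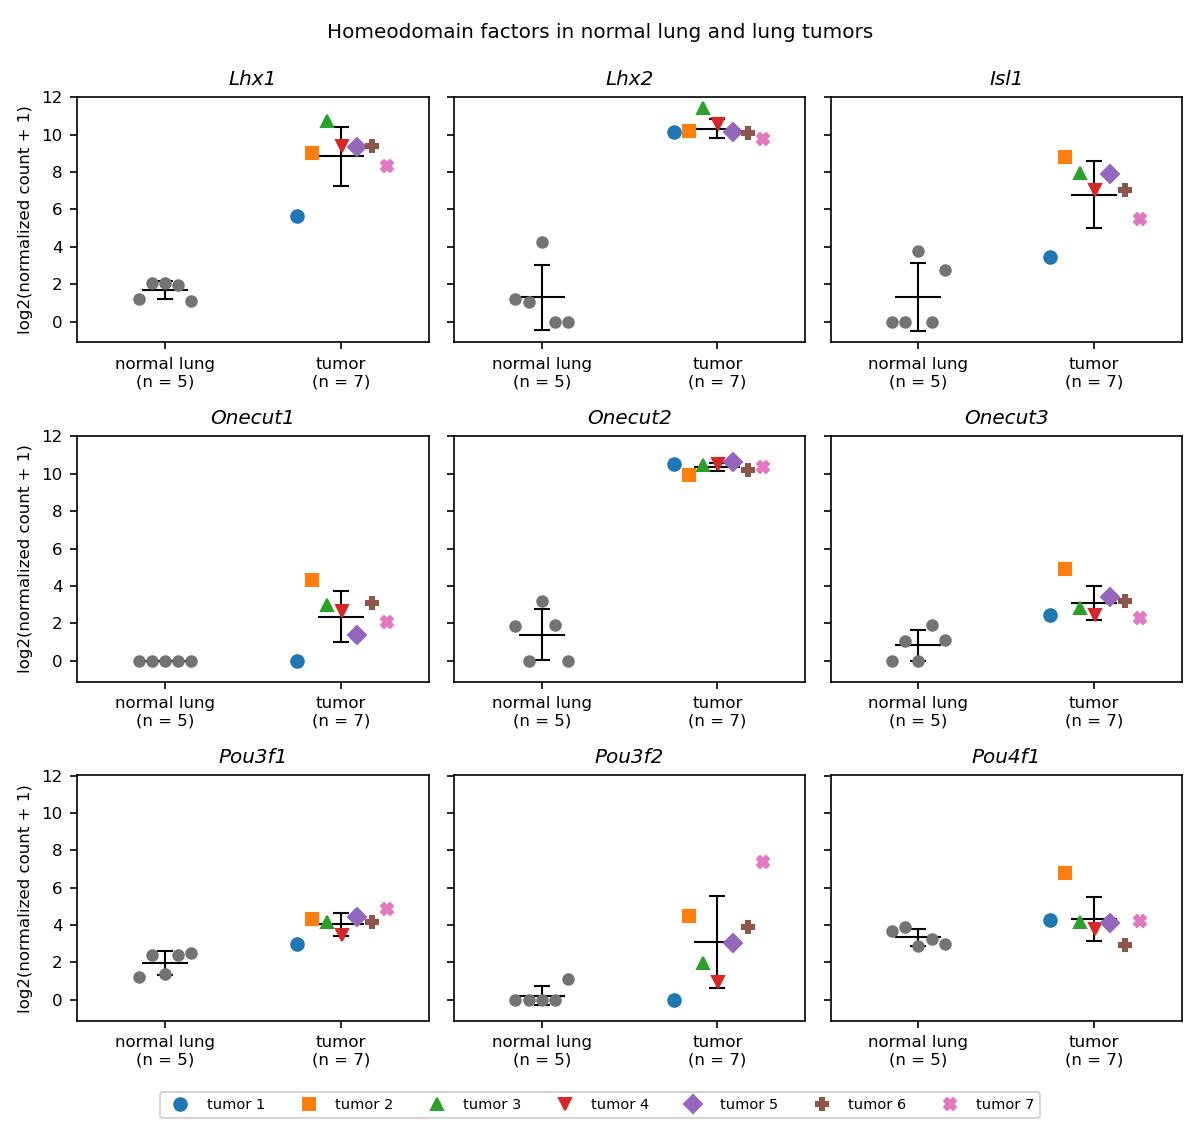
Level of each of the 9 factors as log2(normalized count + 1), with normal lungs as grey circles, tumors as coloured symbols, and horizontal marks with bars for the group mean ± SD (n = 5 and 7). Lhx2 and Onecut2 sit near 10 in every tumor, Isl1 and Lhx1 are lowest in tumor 1, Pou4f1 stands apart in tumor 2 and Pou3f2 in tumor 7.

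Among the LIM homeodomain genes, Lhx2 (ENSMUSG00000000247), which acts in forebrain, eye and hair follicle development, rose most. Normal lungs 1 to 5 had 1.29, 1.08, 17.8, 0 and 0 normalized counts, and tumors 1 to 7 had 1112, 1169, 2719, 1530, 1142, 1084 and 880. Every tumor lay far above every normal lung, tumor 3 was the highest and tumor 7 the lowest. The 17.8 of normal lung 3 rested on 11 reads. The log2 difference was 9.04 (SE 0.61, limma adjusted p = 4.32e-08), and without normal lung 3 it was 9.77.

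Lhx1 (ENSMUSG00000018698), a factor of early head, kidney and Purkinje cell development, rose as well but varied more among tumors. Normal lungs had 1.29, 3.23, 3.23, 2.82 and 1.15 normalized counts, each from 3 reads or fewer. Tumors 1 to 7 had 48.7, 517, 1683, 678, 643, 670 and 325. Tumor 1 lay below the other 6, at a level 13.5-fold under their median, and yet above every normal lung. Tumor 3 was the highest, as it was for Lhx2. Tumor exceeded normal lung by 7.16 in log2 mean (SE 0.66, limma adjusted p = 8.66e-07).

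Isl1 (ENSMUSG00000042258) is needed for motor and sensory neurons, pancreatic islet cells and the heart field. Its 5 normal lung values were 0, 0, 12.9, 0 and 5.75 normalized counts. In tumors 1 to 7 it had 10.1, 440, 243, 129, 235, 129 and 43.6. Tumor 1 fell within the normal lung range, and the other 6 tumors lay above it, with tumor 2 highest. The lowest values were those of the 2 trachea-titled tumors. In log2 means, tumor exceeded normal lung by 5.49 (SE 0.94, limma adjusted p = 2.12e-04). Tumor 7, with the highest cardiac marker sum, had the lowest Isl1 value but for tumor 1.

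The spread among tumors differed between these 3 genes. On the log2 scale the SD across the 7 tumors was 1.79 for Isl1 and 1.58 for Lhx1, against 0.53 for Lhx2 and a median of 0.49 over the 16385 genes with a mean log2 value of at least 4 in tumors. Isl1 had a larger SD than 94.7% of those genes, Lhx1 than 92.5% and Lhx2 than 54.0%. The highest tumor exceeded the lowest by 43.4-fold in Isl1, 34.5-fold in Lhx1 and 3.09-fold in Lhx2.

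Onecut2 (ENSMUSG00000045991), a Onecut gene of liver, pancreas and neurons, was the most even of the 9. Normal lungs had 2.58, 0, 8.08, 2.82 and 0 normalized counts, the highest from 5 reads. Tumors 1 to 7 had 1448, 998, 1402, 1499, 1569, 1183 and 1317. No tumor differed from another by more than 1.57-fold, and all lay above every normal lung. The log2 difference was 8.99 (SE 0.48, limma adjusted p = 5.29e-09). Its SD of 0.23 across tumors was smaller than that of most genes at such levels, of which 7.66% had a smaller one.

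The other 2 Onecut genes stayed near the limit of counting. Onecut1 (ENSMUSG00000043013), known for bile duct and pancreas development, had 0 reads in each of the 5 normal lungs. It had 0, 19.1, 6.94, 5.39, 1.62, 7.41 and 3.20 normalized counts in tumors 1 to 7, at most 16 reads per library. Against the floor of 3 reads over the normal lungs, the tumor mean of 6.23 ± 6.28 (SD, n = 7) was at least 8.11-fold higher. Its limma log2 difference was 2.36 (SE 0.59, adjusted p = 0.00343), a value that depends on the pseudocount. An exon of Onecut1 overlaps the noncoding gene Gm20649 on the same strand, which had 2 reads in tumor 6 and 0 elsewhere.

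Onecut3 (ENSMUSG00000045518), a gene of neuronal development, had 0, 1.08, 0, 2.82 and 1.15 normalized counts in normal lungs. In tumors 1 to 7 it had 4.43, 28.6, 5.95, 4.49, 9.71, 8.09 and 3.84, from 5 to 24 reads. The groups did not overlap, and tumor 2 was the highest, 2.95-fold over the next tumor. Its log2 difference was 2.25 (SE 0.51, limma adjusted p = 0.00170). Tumor 2 thus held the highest value of Onecut1 and of Onecut3, and the lowest of Onecut2.

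Among the POU genes, Pou3f1 (ENSMUSG00000090125), which times myelination in Schwann cells, had a small increase. Normal lungs had 1.29, 4.30, 1.62, 4.23 and 4.60 normalized counts, and tumors 1 to 7 had 6.96, 19.1, 16.9, 9.88, 20.2, 16.8 and 27.5. Each tumor lay above each normal lung, with tumor 1 lowest and tumor 7 highest. The log2 difference was 2.07 (SE 0.41, limma adjusted p = 6.16e-04). The antisense gene Gm2164 overlaps an exon of Pou3f1. It was at 0.991 to 20.5 normalized counts in tumors, highest in tumor 7, and at 3.23 to 12.9 in normal lung, so reads of the pair could not be told apart if counting ignored the strand. The Schwann cell marker Sox10 was at 4.96 to 46.1 normalized counts in tumors, highest in tumor 7, against 0 to 33.9 in normal lung.

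Pou3f2 (ENSMUSG00000095139), a neuronal factor also used to reprogram fibroblasts to neurons, was present in some tumors only. Normal lung 5 had 1.15 normalized counts, which is 1 read, and the other 4 had 0. Tumors 1 to 7 had 0, 21.4, 2.97, 0.898, 7.28, 14.2 and 167. Tumor 7 was 7.77-fold over the next tumor, and tumors 1, 3 and 4 had 3 reads or fewer. Pooled over libraries, 312 reads in tumors stood against 1 in normal lung, a ratio of 138 per size factor (exact 95% interval 24.6 to 5469, counting error only). Of these reads 260 came from tumor 7, and without it 52 reads against 1 gave a ratio of 28.0 (interval 4.80 to 1125). The log2 difference was 2.89 (SE 1.0, limma adjusted p = 0.0230), and without tumor 7 it was 2.17 (adjusted p = 0.0185). Tumor 7 also had the highest leukocyte, fibroblast and cardiac marker sums of the tumors. Its level of the leukocyte gene Ptprc, 3291 normalized counts, was above the 1988 to 3120 of the normal lungs. The part of those tissues in its Pou3f2 level was not tested.

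Pou4f1 (ENSMUSG00000048349), the sensory neuron gene also called Brn3a, did not pass the test. Normal lungs had 11.6, 14.0, 6.46, 8.46 and 6.90 normalized counts, and tumors 1 to 7 had 18.4, 108, 16.9, 12.6, 16.2, 6.74 and 17.3. Tumor 2, with 91 reads, was 5.90-fold over the next tumor, while tumors 4 and 6 lay within the normal lung range. The log2 difference was 0.98 (SE 0.54, limma adjusted p = 0.131), and 0.57 without tumor 2 (adjusted p = 0.170). DESeq2 on the recovered reads of 11 samples did call it, at 1.66 (adjusted p = 0.0340). Scn10a and Trpv1, which mark pain-sensing neurons, were at 0 to 14.7 and 0 to 12.8 normalized counts in tumors and at 2.38 and 4.77 in tumor 2. Other peripheral neuron markers went both ways in tumor 2. Nefh (2985) and Snap25 (4284) were the highest of the tumors there, and Prph (52.4), Chrna3 (39.3) and Phox2a (3.57) the lowest.

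The peripheral neuron list as a whole was higher in tumors. The summed level of its 12 genes was 3858 to 9333 normalized counts in tumors against 19.7 to 99.3 in normal lung, with no gene at 0 in every tumor. Of this sum Snap25, a synaptic gene that neuroendocrine cells express too, held 1556 to 4284 in tumors, and Phox2a held 3.57 (tumor 2) to 2215 (tumor 3). Th, Chrna3, Prph, Nefh and Avil were also above every normal lung in every tumor. Th, the rate-limiting enzyme of catecholamine synthesis, was at 27.9 to 887 normalized counts in tumors and had 0 reads in normal lung. The nicotinic receptor gene Chrna3 was at 39.3 to 193 against 0 to 2.58, and the neuronal filament genes Prph and Nefh at 52.4 to 1574 against 4.85 to 23.2 and at 310 to 2985 against 1.41 to 32.3. Hand2 and Dbh, of autonomic neurons, reached at most 6.40 and 7.05 in any tumor. The part of nerve tissue in the levels of Isl1 and the POU genes was not tested.

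Levels of different genes were set beside each other per kilobase of exon, since Onecut2 has 16234 bases of annotated exon and the other 8 genes 3849 to 5587. On this scale Lhx2 was the highest at 313 ± 142 normalized counts per kb in tumors (SD, n = 7), followed by Lhx1 at 160 ± 125, Onecut2 at 82.9 ± 12.2 and Isl1 at 44.3 ± 36.7. Lhx2 lay above Lhx1 in 7 of 7 tumors, Lhx1 above Onecut2 in 5 and Onecut2 above Isl1 in 6, and the ranges of all neighbours in the order overlapped. Pou4f1 (6.01 ± 7.63), Pou3f2 (5.45 ± 10.8), Pou3f1 (4.36 ± 1.76), Onecut3 (1.95 ± 1.84) and Onecut1 (1.52 ± 1.53) followed. Lhx2 alone made up 43.7% to 69.6% of the summed level per kb of the 9 genes in each tumor. That sum was 620 ± 272 per kb over the 7 tumors and 5.72 ± 2.70 over the 5 normal lungs (mean ± SD).

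**Figure D2:**
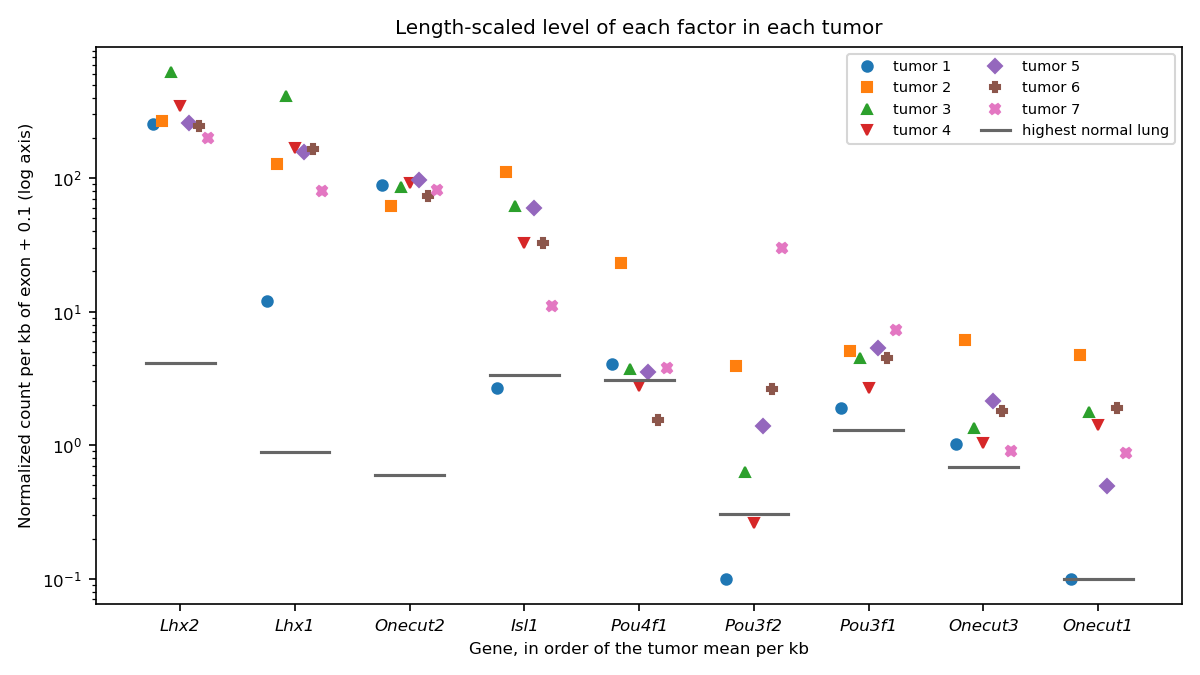
Normalized count per kb of exon, plus 0.1, on a log axis for each factor in each tumor, ordered by the tumor mean, with a grey line at the highest normal lung value. Lhx2 is the highest of the 9 genes in all 7 tumors, and all tumors but tumor 1 (Isl1) exceed the grey line for the 4 genes on the left.

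The profile of the 9 genes differed from tumor to tumor, and the other genes of the same families were read beside it. These lists were made by family membership. Among the other LIM homeodomain genes, 7 of 9 were higher in tumor and 1 was lower, beside 24.0% higher and 24.5% lower over all genes tested. Their median log2 difference was 2.81 (3.40 with the 3 genes absent from normal lung at their lower bound). For 4 of these 9 genes (Lhx3, Lhx5, Lhx9 and Lmx1a) the normal lung mean was under 1. These 4 passed the filter on low values only through the tumors, so their tumor mean had to be higher. All 4 were among the 7 called higher. Lmx1b, a gene of limb and midbrain development, rose from 9.29 ± 9.46 to 1240 ± 770 normalized counts (mean ± SD, 5 normal lungs and 7 tumors), a log2 difference of 7.03 (SE 0.63, limma adjusted p = 5.91e-07). Isl2, the relative of Isl1 in motor neurons, rose by 6.45 on the log2 scale (SE 1.04, limma adjusted p = 1.32e-04) and Lhx3, their partner in motor neurons, by 4.45 (SE 0.68, limma adjusted p = 7.63e-05). Lhx6, which acts in interneurons and jaw mesenchyme, fell by 2.38 on the log2 scale (SE 0.55, limma adjusted p = 0.00214), from 116.3 ± 40.2 to 26.8 ± 19.7 normalized counts.

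Tumor 1 had the lowest level of several LIM homeodomain genes at once. Isl2 had 3.17 normalized counts in tumor 1, within the normal lung range of 0 to 5.38, against 147 to 445 in the other 6 tumors. Lmx1b had 244 against 522 to 2227, Lhx3 had 3.80 against 19.5 to 93.0 and Lmx1a had 3.17 against 11.5 to 330. Isl1 and Lhx1 followed the same order at the bottom, with tumor 1 lowest and tumor 7 next. Lhx2 and Onecut2 in tumor 1 were 0.962 and 1.07 times the median of the other tumors. Lhx4, Lhx8 and Lhx9 in tumor 1 were 0.987, 1.34 and 1.28 times that median. Lhx5 was lowest in tumor 3, and Lhx6 in tumor 1 (5.70 against 5.95 to 63.4). Tumor 1 was also the only tumor with Y-linked expression above a sum of 8.08.

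Among the other POU genes, 4 of the 9 tested were higher in tumor and 0 were lower, beside 24.0% higher and 24.5% lower over all genes tested. Their median log2 difference was 1.45 (1.89 with the 3 genes absent from normal lung at their bound). Those 3 genes (Pou3f4, Pou4f2 and Pou4f3) passed the filter on low values only through the tumors, so their tumor mean had to be higher. Pou3f4 and Pou4f2 were among the 4 called higher, and Pou4f3 was not called. Of the 12 genes listed, 10 were in the table, and Pou5f1 had too few reads to be tested. Pou2f2, best known from B cells, rose from 1088 ± 348 to 3936 ± 779 normalized counts, by 1.89 on the log2 scale (SE 0.23, limma adjusted p = 1.13e-05). The B cell gene Cd79a was at 23.4 to 145 normalized counts in tumors against 376 to 1092 in normal lung, and the part of leukocytes in the level of Pou2f2 was not tested.

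Single POU genes marked single tumors. Pou3f4, a neural and inner ear gene with 0 reads in normal lung, had 601 normalized counts in tumor 1, 42.9 in tumor 5, 53.8 in tumor 7 and 0 to 5.39 in the other 4. Pou4f3, the hair cell relative of Pou4f1, had 144.1 in tumor 2 and 0 to 3.37 elsewhere. Lmx1a was likewise highest in tumor 2, at 330 against at most 46.6. So tumor 2 held the highest Isl1, Pou4f1, Pou4f3, Lmx1a, Onecut1 and Onecut3, tumor 7 the highest Pou3f1 and Pou3f2, tumor 1 the highest Pou3f4, and tumor 3 the highest Lhx1 and Lhx2. These tumor-by-tumor patterns are single samples and were not tested.

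**Figure D3:**
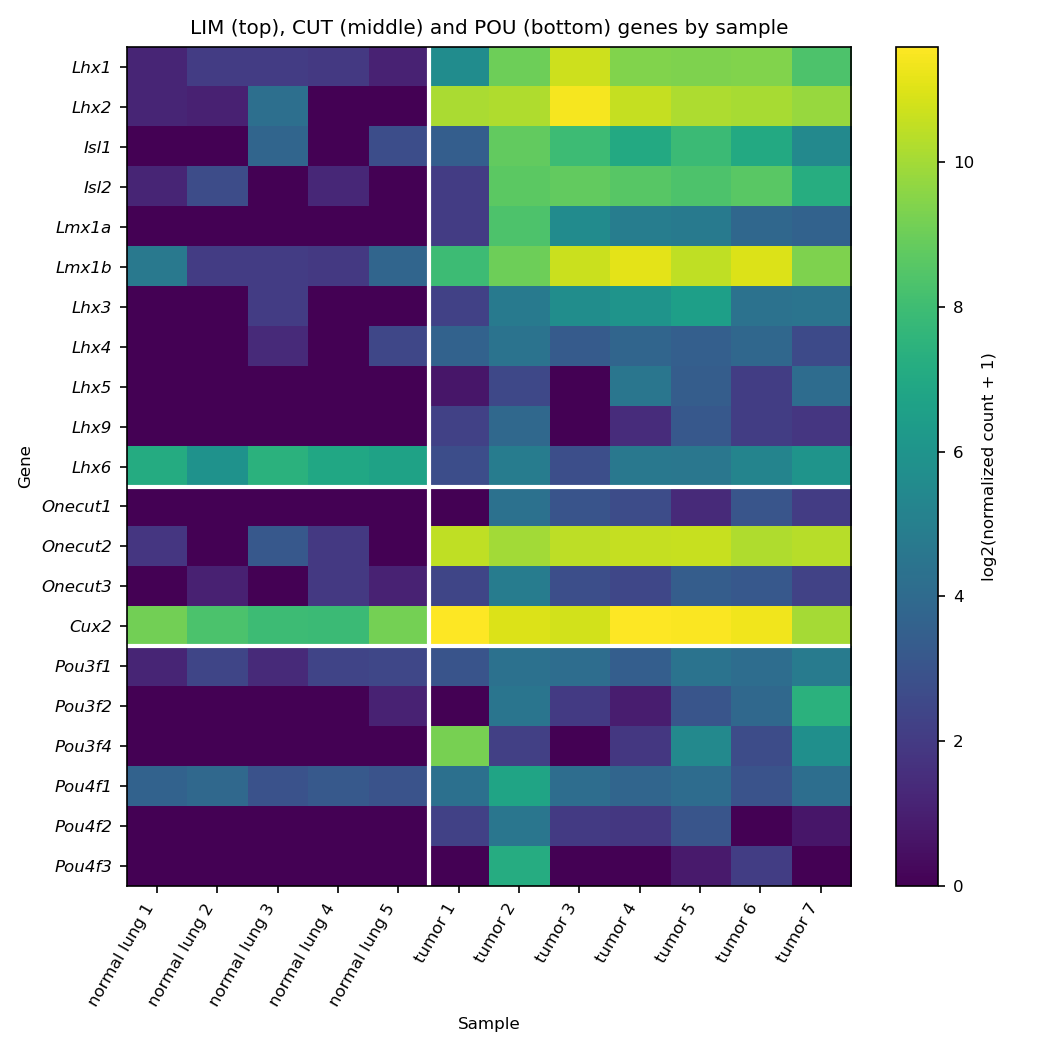
Log2(normalized count + 1), by colour, of LIM homeodomain (top), CUT (middle) and POU (bottom) genes in the 5 normal lungs and 7 tumors. Tumor 1 is dark for Isl1, Isl2, Lmx1a and Lhx3 and light for Pou3f4, and tumor 2 is light for Lmx1a, Pou4f1 and Pou4f3.

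Tumors that share a title number were set side by side. The mean absolute log2 difference between 2 tumors of the same number (4 pairs) was below that between tumors of different numbers (17 pairs) for each of the 9 genes. It was 0.85 against 1.89 in Lhx1, 1.43 against 2.22 in Isl1 and 0.23 against 0.27 in Onecut2. Within number 201, Pou3f2 still ran from 7.28 in tumor 5 to 167 in tumor 7, and Isl1 from 235 to 43.6. Pairs share tumors, so these differences were not tested. Tumors 1 and 2 share a number with no other tumor and entered only the 17 pairs. Tumor 1 held the lowest Isl1 (10.1) and Lhx1 (48.7). Tumor 2 held the highest Isl1 (440) and the lowest Onecut2 (998). The comparison therefore cannot tell a shared number from the absence of tumors 1 and 2 among the 4 pairs.

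Among CUT genes outside the Onecut class, 1 of 4 was higher in tumor and 0 were lower, where 24.0% of all genes tested were higher. Cux2, a gene of upper cortical neurons, rose from 388 ± 166 to 2350 ± 772 normalized counts, by 2.61 on the log2 scale (SE 0.31, limma adjusted p = 9.12e-06). The count was 2 of 4 without tumor 1.

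LIM homeodomain proteins act through cofactors. Of 10 genes for LIM cofactors and LMO proteins, 2 were higher and 1 was lower in tumor, with a median log2 difference of 0.23, beside 24.0% higher, 24.5% lower and a median of 0.04 over all genes tested. Ldb1, the common cofactor, was at 3631 ± 341 normalized counts (normal lung) and 3948 ± 782 in tumors (log2 difference 0.10, SE 0.15, limma adjusted p = 0.562). Ldb2, its relative, fell by 4.64 on the log2 scale (SE 0.46, limma adjusted p = 1.62e-06), from 2316 ± 226 to 114 ± 69.7. The summed level of endothelium markers was also lower in every tumor, and their part in the fall of Ldb2 was not tested. Ssbp3, which stabilises Ldb proteins, rose by 1.67 (SE 0.17, limma adjusted p = 1.99e-06), and Lmo1, a LIM-only protein that binds Ldb1, by 1.78 (SE 0.37, limma adjusted p = 8.95e-04).

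**Figure D4:**
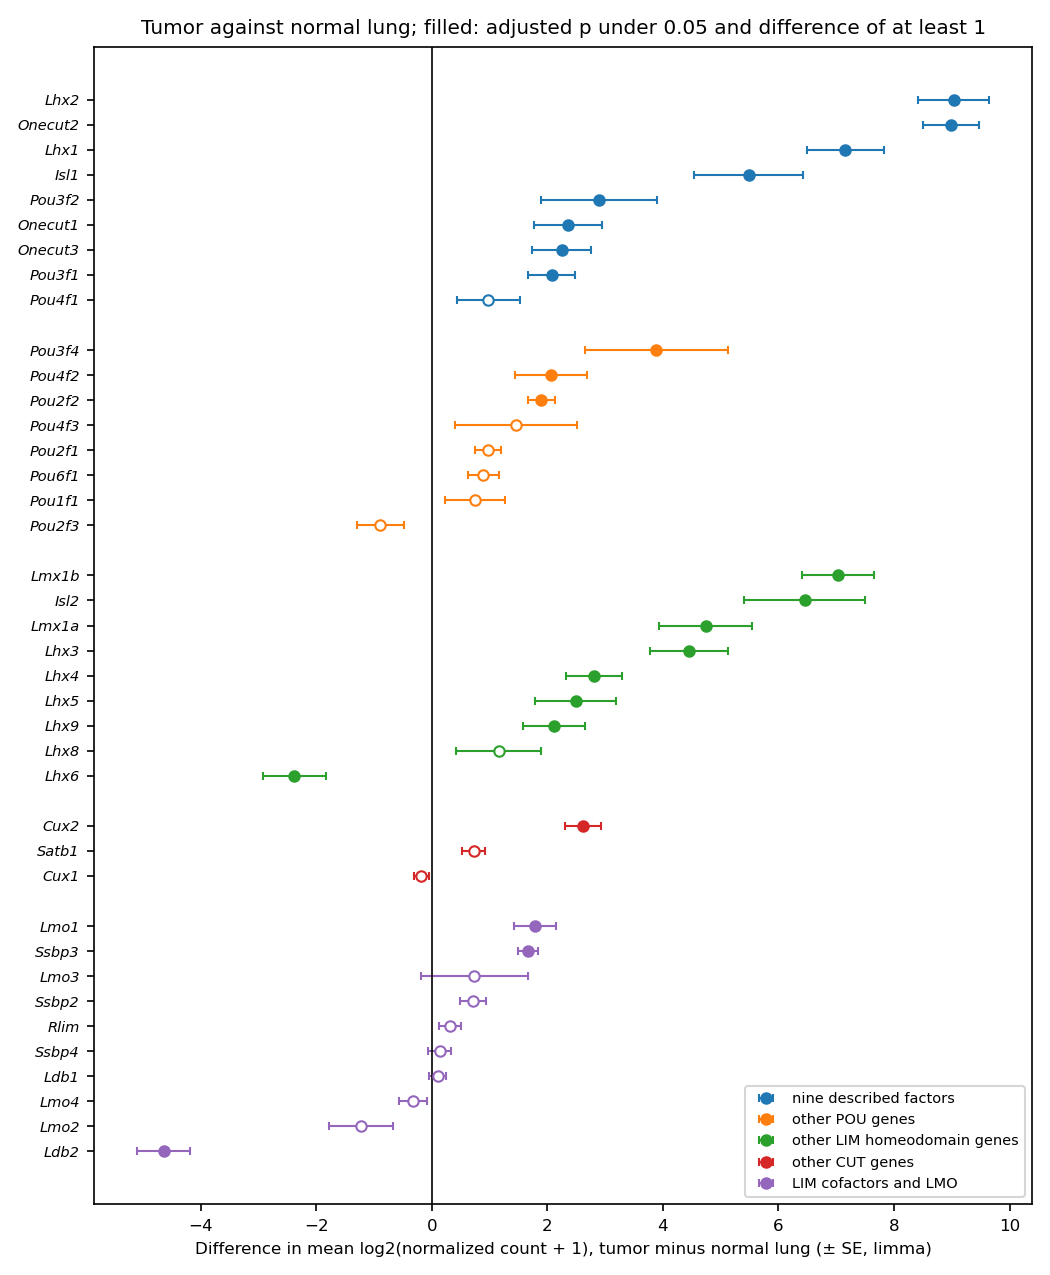
Tumor minus normal lung difference in mean log2(normalized count + 1) with its SE from limma, for the 9 factors and named genes of the related lists, filled where the adjusted p is under 0.05 and the difference at least 1 in size. Lhx2 (9.04) and Onecut2 (8.99) lie farthest to the right, and Ldb2 (-4.64) and Lhx6 (-2.38) are the filled points below 0.

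For each of the 6 factors with a mean log2 value of at least 4 in tumors, the 2 genes with the highest Pearson r over the 7 tumors were sought among 14002 other named genes. With 7 tumors many genes reach a high r, so the number at 0.9 or more is given as scale. For Lhx1 these were Ttc9b (r = 0.978) and Tube1 (r = 0.975), with 100 genes at 0.9 or more, and for Lhx2 they were Dyrk3 (r = 0.992) and Ywhab (r = 0.983), with 67. For Isl1 they were Faap24 (r = 0.989) and Cacng7 (r = 0.989), with 87 genes, and for Onecut2 they were Zfp53 (r = 0.969) and Cables1 (r = 0.960), with 39. Pou3f1 lay nearest to Dmac1 (r = 0.957) and Snx3 (r = 0.951), with 22 genes, and Pou4f1 to Xk (r = 0.966) and Mmp9 (r = 0.961), with 88. Tumor 2 stood apart in Pou4f1, and r without it was not computed. These values describe the 7 tumors only, of which 5 share a title number with another.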

How the data were processed

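Whole tissue of 5 normal lungs and 7 tumors was profiled by poly-A RNA sequencing (paired ends, Illumina NovaSeq), per the labels' protocols. The submitters' processing notes name featureCounts, DESeq2 and GRCm39; the aligner, the annotation and use of the strand are not given in the sources used here. The deposited table holds a normalized count signal made by the authors: 100% of values in each column were whole multiples of its smallest value (relative tolerance 1e-06), and the size factors (0.619 to 1.58) matched median-of-ratios factors recomputed from the recovered reads to 4.22e-10. None of 31 same-group pairs of libraries agreed to within counting error (lowest chi-square over its degrees of freedom 19.8).

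Samples were grouped by tissue label, with replicate numbers in order of listing. GENCODE M21 symbols matched 29982 of 30399 identifiers and gave exon lengths. The 23674 genes whose mean over samples reached 1 were fitted on log2(value + 1) with limma 3.58.1 (lmFit, eBayes with trend, R 4.3.3), all 12 samples, Benjamini-Hochberg adjustment; log2 differences on this scale understate changes of low genes. A call needed both adjusted p below 0.05 and an absolute log2 difference of 1 or more. The design had foreseen this form for normalized values. On simulated data with these group sizes (23674 genes, 200 changed by 4-fold) 97.5% of changed genes were recovered and 3.94% of calls were false. The simulation gave all genes the same variability, treated samples as independent and changed only genes above a minimum mean. Its rates need not hold for genes with few reads, for tumors that share a title number, or where many genes differ. Intervals and floors (3 reads) cover counting error only.

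The 9 genes, the related lists and the marker lists were chosen with earlier results of these data known. Named are the 9 genes, genes of the family, cofactor and marker lists, and the 2 genes most alike each of the stronger factors. Alternatives covered pseudocount, filters, scaling, same-numbered tumors averaged or correlated, the trachea-titled tumors, a Y-linked covariate, leaving out each sample, and edgeR 4.0.16 and DESeq2 1.42.0 on recovered reads of 11 samples. Tumor 3 stayed out of the count tests because its step of 0.991 per read lies close to 1, where the check of recovered reads is least decisive. An edgeR fit with the filter of the main analysis, and the read ratio of Pou3f2 without each tumor, were added after seeing the data. Pou3f3, Pou5f2, Grp, Actc1, Itgam and Tcf21 were not analysed here, and some members of the related and marker lists enter counts and sums but are not reported singly. Analyses used Python 3.11.15, numpy 2.4.6, pandas 2.3.3, scipy 1.17.1 and matplotlib 3.10.9.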

Additional observations from a re-analysis of the deposited data

Results flagged for a closer look

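Each sample was compared with the rest of its group on log2(normalized count + 1), for the 9 genes in normal lung and in tumors (18 groups), by the 95% limit of Dixon's ratio. In 3 groups a sample stood apart, where 0.9 would be expected by chance. Lhx2 in normal lung 3 was at 4.23 against 1.20 in the next normal lung, and it rested on 11 reads. Pou3f2 in normal lung 5 was at 1.10 against 0 in the others, which is 1 read. Pou4f1 in tumor 2 was at 6.77 against 4.28 in the next tumor. The log2 difference of Lhx2 was 9.77 without normal lung 3, that of Pou3f2 was 3.11 without normal lung 5, and that of Pou4f1 was 0.57 without tumor 2.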

How the results depend on the processing

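Direction was the same for all 9 genes under every alternative that tested them. Calls were unchanged for Isl1, Lhx1, Lhx2, Onecut2, Onecut3 and Pou3f1, and 8 genes were called higher whichever sample was left out. Adding Y-linked expression as a covariate left 6 called: Onecut1 (1.48, adjusted p = 0.0998) and Pou3f2 (1.61, adjusted p = 0.303) were lost, and the log2 difference of Isl1 fell from 5.49 to 3.25 (adjusted p = 0.00670). A pseudocount of 0.1 raised the difference of Onecut1 to 4.98, of Onecut3 to 3.78 and of Pou3f2 to 4.996; edgeR with the main filter and DESeq2 gave 5.70 and 4.69 for Onecut1 and 6.67 and 6.64 for Pou3f2. In that fit the covariate rests on tumor 1 and normal lung 3, and it cannot be told apart from the tissue in the other samples. Over the alternatives adjusted p ran from 1.99e-04 to 0.0998 for Onecut1, 1.77e-04 to 0.303 for Pou3f2 and 0.0340 to 0.232 for Pou4f1. DESeq2 called 9 genes, Pou4f1 included. EdgeR with TMM and its own filter called 5 of the 6 genes it tested (Onecut1, Onecut3 and Pou3f2 were filtered out) and 3767 genes lower against 5805; with the main filter it called 8 of 9. At a mean of at least 10, Onecut1 and Onecut3 were not tested, and 4 other LIM homeodomain genes were called higher, with 5 of 9 tested. Calls of other CUT genes rose from 1 to 2 without the trachea-titled tumors and in the edgeR and DESeq2 fits, and ran from 1 to 2 when 1 sample was left out (2 without tumor 1). Lower calls of cofactors were 2 with the Y-linked covariate and ran from 1 to 2, with Lmo2 added without normal lung 4, normal lung 5 or tumor 2; those of other POU genes ran from 0 to 1, with Pou2f3 added without tumor 2 or tumor 4. Uncalled values reversed for Cux1 under equal totals (0.0279) and for Lmo3 with the covariate (-0.75). No paired analysis was possible because the labels give no replicate numbers that groups share. Depth limits Onecut1, Onecut3 and Pou3f2, which had 3 reads or fewer in each normal lung. Lhx1 also had 3 reads or fewer in each normal lung, but 77 to 1698 in tumors. Lhx2 and Onecut2 had so few in 4 of the 5, so depth limits the normal lung levels of these genes too.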
